A study of Mus musculus with 39 samples.

Results

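Here 2 states that alter the exit of monocytes from bone marrow were set side by side: 4 h without food, and loss of the chemokine receptor CCR2. The members are the 14 of 39 mouse libraries that hold these states, and the genes listed and tested in both experiments, of which there were 9123. In the fasting experiment, bone marrow monocytes came from wild-type C57BL/6 mice whose food was taken away for 4 h with a change of bedding (fast, n = 4) and from wild-type C57BL/6 mice left with food (food, n = 4). In the other experiment they came from CCR2-/- mice (n = 3) and from C57BL/6 mice with no time in their label (n = 3), both with food. All mice had free water and were 8 to 12 weeks old, and the monocytes were sorted by flow cytometry on a FACS Aria. The other 25 libraries of the series, which hold marrow monocytes after 17 h, liver cells and spinal cord monocytes, were used here only where stated.

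CCR2 is a receptor on classical (inflammatory) monocytes, and its ligand CCL2 draws these cells out of the marrow sinusoids into the blood. Without CCR2 the cells form in the marrow but leave it poorly, so they accumulate there. Fasting lowers the number of circulating monocytes, and the adrenal glucocorticoid hormone that rises in fasted rodents is a known regulator of where leukocytes reside. The cells studied here were still in the marrow when sorted, and in such bulk libraries fewer cells of a type and less RNA per cell cannot be told apart.

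Values are taken as TPM, a transcript level that allows for length and for the total of the library, and differences below are of log2(TPM + 1), fast minus food or CCR2-/- minus C57BL/6. A gene counts as called where limma gave an adjusted p (Benjamini-Hochberg, over all genes of its experiment) below 0.05. TPM was inferred from the values themselves, read numbers are unknown, and no label states whether the libraries of 1 group came from different mice. Median TPM per library was 35.7 to 39.0 in the 4 h experiment and 37.9 to 42.7 in the CCR2 experiment. Classical monocyte genes were abundant in every library, with summed levels of 99235 to 122390 TPM in fast, 89596 to 101905 in food, 95752 to 105947 in CCR2-/- and 76608 to 96574 in C57BL/6 libraries. Of the marker lists of other cells, 2 of 19 B and plasma cell genes (Ighm and Cd79b), 1 of 20 T and NK cell genes, 2 of 16 erythroid genes and none of 10 platelet or 14 eosinophil, basophil and mast cell genes were listed in both experiments. More were listed of the neutrophil (9 of 26), dendritic cell (7 of 14) and macrophage (6 of 18) lists. The summed level of the listed neutrophil genes was 1787 to 2018 TPM in fast and 1736 to 2123 TPM in food libraries (12 genes), and 2037 to 2113 TPM in CCR2-/- and 1684 to 1940 TPM in C57BL/6 libraries (9 genes), where the groups did not overlap. Its part in the results with CCR2 loss was not tested. At 4 h summed B and plasma cell genes did not overlap, at 614 to 795 TPM in fast and 876 to 996 TPM in food libraries (4 genes). Nor did erythroid genes (59.3 to 109 and 25.7 to 51.4 TPM, 6 genes) or stroma and endothelium genes (905 to 964 and 1099 to 1153 TPM, 2 genes). The 1 listed T and NK cell gene overlapped there. The part of these cells in the fasting results was not tested. Some libraries stood apart. Fast replicate 1 correlated less with the other fast libraries (r = 0.964 to 0.973) than with food replicates 1 to 3 (r = 0.983 to 0.984). Food replicate 4 correlated at 0.965 to 0.971 with the other food libraries, which correlated at 0.985 to 0.990 with each other. C57BL/6 replicate 1 correlated at 0.979 to 0.982 with the other C57BL/6 libraries, which correlated at 0.989 with each other.

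The label of the CCR2 experiment was checked first on the receptor itself. Ccr2 stood at 64.7, 62.3 and 60.8 TPM in the CCR2-/- libraries, against 2449, 2622 and 2338 TPM in the C57BL/6 libraries (difference -5.28, SE 0.07, adjusted p = 4.5e-09). Fasting left it within the spread of its groups: the fast libraries held 2077, 2177, 1821 and 1684 TPM and the food libraries 2053, 2068, 1987 and 2128 TPM (difference -0.09, SE 0.09, adjusted p = 0.61). The receptor's transcript was thus nearly lost in 1 state and overlapped its controls in the other, and the 2 differences differed by 5.19 (SE 0.12, adjusted p = 9.6e-14).

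The first question was how many genes moved in each state, and whether they were shared. Of the 9428 genes tested at 4 h, 25 were called higher and 15 lower in fasted monocytes, which is 0.424% of the genes tested, and 15.6% had an unadjusted p under 0.05. With CCR2 loss 59 of 9210 genes were called higher and 344 lower, which is 4.38%. Scaling moved these splits: at 4 h quantile normalization gave 23 higher and 10 lower and median centring 23 and 8, and with CCR2 loss the same scalings gave 94 and 222, and 123 and 239. With the length correction described below they were 25 and 6 at 4 h, and 180 and 338 with CCR2 loss. Among the 9123 genes of both experiments 35 were called with fasting and 397 with CCR2 loss, and 5 were called in both. Tsc22d3, Nfkbia and Ms4a4a were higher in both states and Cd24a was lower in both. Dusp1 was higher with fasting and lower with CCR2 loss. The 4 genes that moved the same way make up 11.4% of the fasting calls and 1.01% of the CCR2 calls.

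**Figure D1:**
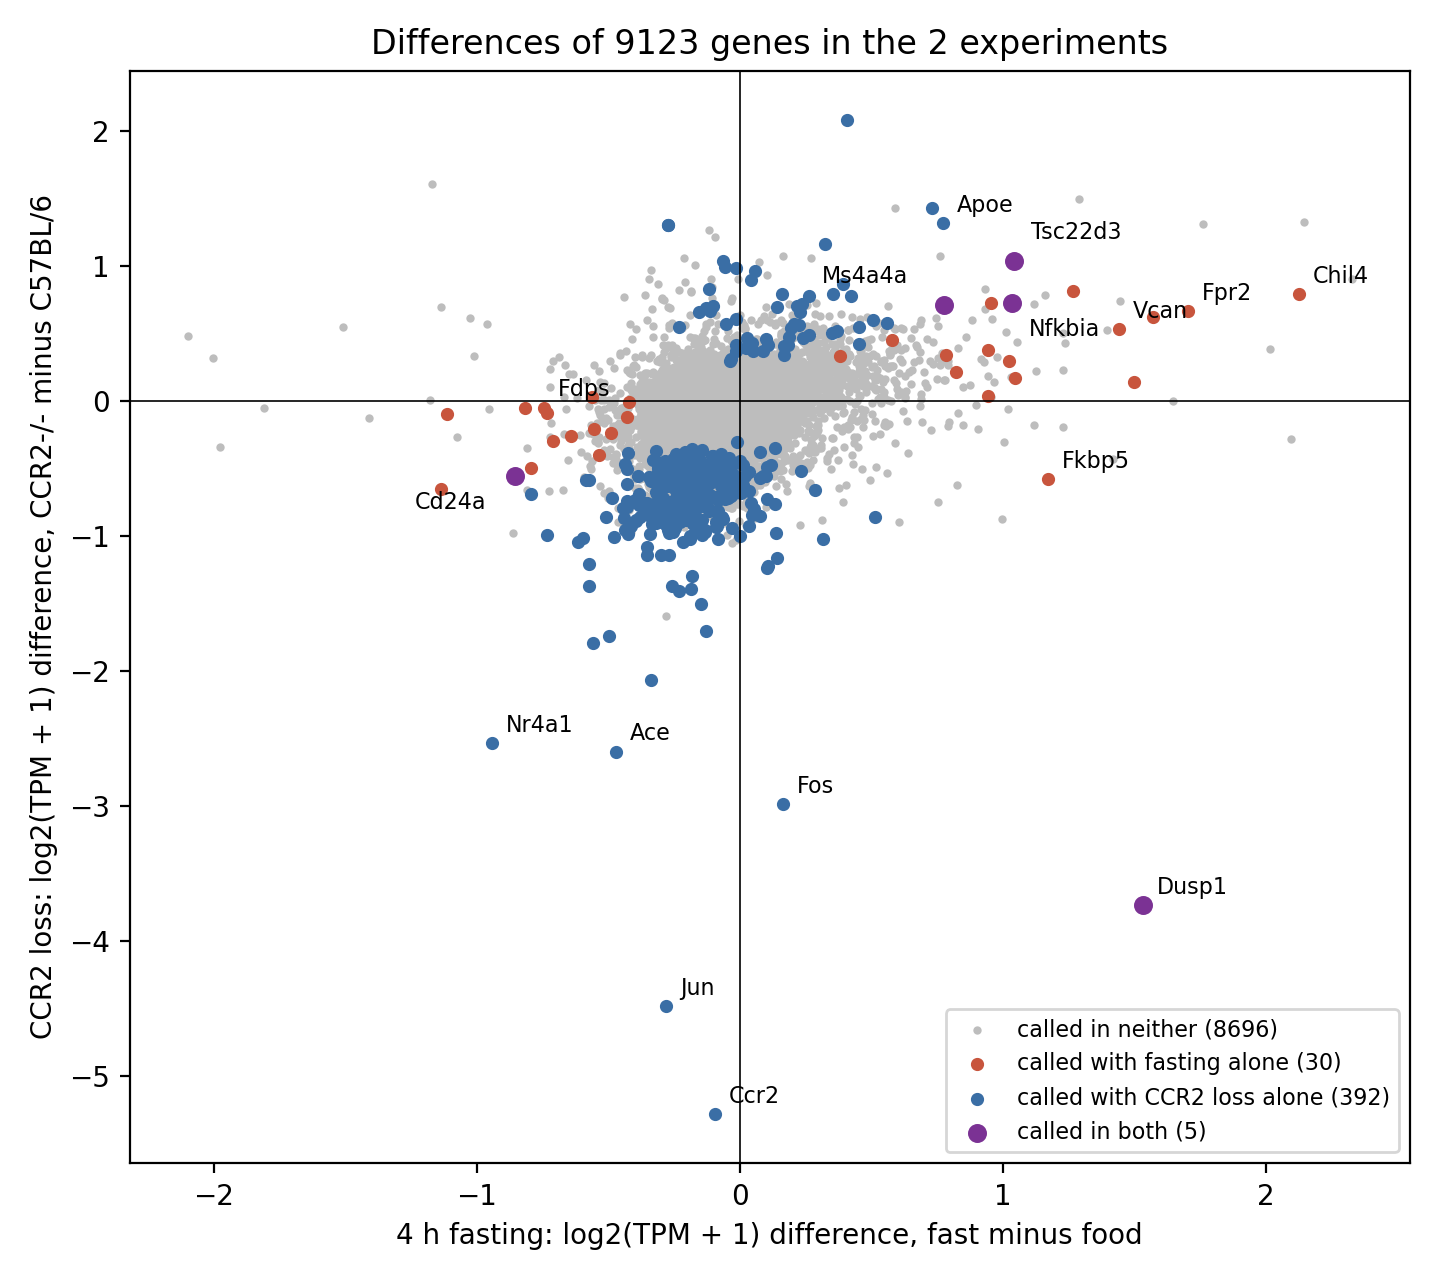
Each point is 1 of 9123 genes, with its log2(TPM + 1) difference at 4 h of fasting (fast minus food, x axis) against that with CCR2 loss (CCR2-/- minus C57BL/6, y axis). The 5 genes called in both lie in 3 corners: Tsc22d3, Nfkbia and Ms4a4a upper right, Cd24a lower left and Dusp1 lower right, while Ccr2 lies far down near 0 on the fasting axis.

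Direction was shared more widely than calls. Of the 9123 genes, 65.2% had the same sign in both contrasts, and the differences correlated across genes with Pearson's r = 0.33 and Spearman's rho = 0.39, as a description, since genes are not independent replicates. The contrasts share no library. Of the 35 genes called with fasting, 32 (91.4%) had the same sign with CCR2 loss: 18 of 20 higher genes and 14 of 15 lower genes (0.219% and 0.164% of the 9123 genes were called higher and lower). The median difference with CCR2 loss was 0.41 for the fasting-higher genes and -0.21 for the fasting-lower genes, beside -0.03 for all genes. Of the 397 genes called with CCR2 loss, 347 (87.4%) had the same sign with fasting, 41 of 58 higher and 306 of 339 lower (0.636% and 3.72% of the 9123 genes). That share rests on which libraries are in the fit: 7 of 10 called genes had the same sign without CCR2-/- replicate 2 and likewise without replicate 3, 15 of 21 without C57BL/6 replicate 1 and 16 of 25 without C57BL/6 replicate 2, or 64.0% to 71.4%, beside 59.8% to 66.4% of all genes in the same 4 fits. Of all 9123 genes 2977 were positive with fasting and 4033 with CCR2 loss, so most differences lay below 0 in both. With median centring 60.9% of all genes had the same sign. So did 295 of 356 genes called with CCR2 loss (82.9%) and 23 of 27 called with fasting (85.2%). For the genes called with fasting the lowest share in the fits with 1 library left out was 77.6%, 97 of 125, without fast replicate 1. The share of all genes with the same sign was 58.9% without fast replicate 2 and 59.8% without C57BL/6 replicate 1, and r was then 0.19 and 0.22. Libraries were fully separated in the same direction in both experiments for 224 genes (66 higher, 158 lower) and in opposite directions for 38, where 8.81% of genes at 4 h (2.44% higher, 6.37% lower) and 33.3% with CCR2 loss (11.2% higher, 22.2% lower) had groups that did not overlap. Transcript length moved with both contrasts (Spearman's rho across genes -0.20 with fasting and -0.18 with CCR2 loss), and its part in the shared direction was not fully tested. After a loess fit on length was subtracted from each library, rho with length was 0.14 with fasting, so the trend there was turned and not taken away, and 0.02 with CCR2 loss. In those values r between the contrasts was 0.31 and 61.0% of genes had the same sign. GC content moved with the CCR2 contrast (rho -0.29, and -0.35 after the length correction) and less with fasting (-0.04 and -0.10), and its part was not tested.

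Tsc22d3 encodes GILZ, a leucine zipper protein that glucocorticoids induce and that restrains inflammatory transcription. It stood at 646, 809, 695 and 796 TPM in the fast libraries, against 318, 292, 374 and 458 TPM in the food libraries (difference 1.04, SE 0.13, adjusted p = 0.0055). In the other experiment it stood at 589, 746 and 629 TPM in CCR2-/-, against 335, 237 and 404 TPM in C57BL/6 (difference 1.03, SE 0.18, adjusted p = 0.044). The groups did not overlap in either experiment, and the 2 differences were of like size (0.01 apart, SE 0.24, adjusted p = 0.99).

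Nfkbia encodes the NF-kB inhibitor IkB-alpha, which holds NF-kB in the cytoplasm. Its fast libraries held 293, 340, 368 and 365 TPM, against 159, 147, 173 and 184 TPM with food (difference 1.04, SE 0.10, adjusted p = 0.0019). CCR2-/- libraries held 209, 256 and 262 TPM, against 121, 139 and 183 TPM in C57BL/6 (difference 0.72, SE 0.15, adjusted p = 0.047). Every fast library lay above every food library and every CCR2-/- library above every C57BL/6 library. Ms4a4a encodes a membrane protein of the MS4A family found on myeloid cells. It stood at 397, 525, 429 and 348 TPM in fast, against 269, 229, 242 and 240 TPM in food libraries (difference 0.78, SE 0.12, adjusted p = 0.016). It stood at 498, 619 and 521 TPM in CCR2-/-, against 286, 312 and 410 TPM in C57BL/6 libraries (difference 0.71, SE 0.14, adjusted p = 0.044). Again neither pair of groups overlapped, and the MS4A neighbours are taken up below.

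Cd24a, a small lipid-anchored surface glycoprotein that is high on progenitors and lower on mature myeloid cells, was the gene called lower in both. It stood at 48.9, 40.1, 41.9 and 42.8 TPM in fast, against 83.9, 85.8, 68.2 and 80.1 TPM in food libraries (difference -0.86, SE 0.10, adjusted p = 0.0042). CCR2-/- libraries held 45.7, 46.2 and 47.1 TPM, against 82.8, 62.3 and 62.4 TPM in C57BL/6 (difference -0.55, SE 0.12, adjusted p = 0.048). The highest fast library lay below the lowest food library, and the highest CCR2-/- library below the lowest C57BL/6 library.

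Dusp1, a phosphatase that switches off MAP kinases and is induced both by glucocorticoids and as an immediate early gene, moved in opposite directions. It stood at 33.9, 49.2, 48.9 and 75.0 TPM in fast, against 22.9, 11.6, 13.6 and 20.7 TPM in food libraries (difference 1.53, SE 0.26, adjusted p = 0.046). It stood at 8.99, 16.1 and 15.5 TPM in CCR2-/-, against 392, 159 and 104 TPM in C57BL/6 libraries (difference -3.73, SE 0.44, adjusted p = 0.018). The C57BL/6 libraries of the CCR2 experiment were above all 11 others, and the 2 differences were 5.26 apart (SE 0.57, adjusted p = 0.0019). The levels of the 2 experiments were normalized as separate tables.

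The fasting calls of Tsc22d3, Nfkbia and Cd24a held in each of the 8 fits with 1 library left out, Ms4a4a in 5 and Dusp1 in 3, with adjusted p up to 0.062 for Ms4a4a (without food replicate 2) and up to 0.16 for Dusp1 (without fast replicate 2). With CCR2 loss none of the 5 held throughout. Without CCR2-/- replicate 2 their adjusted p was 0.16 to 0.17, and without CCR2-/- replicate 3 it was 0.0907 for Dusp1 and 0.155 for the other 4. Without C57BL/6 replicate 1 it was 0.11 to 0.13, and without C57BL/6 replicate 2 0.067 to 0.11, for the 4 genes that moved the same way, while Dusp1 stayed called.

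**Figure D2:**
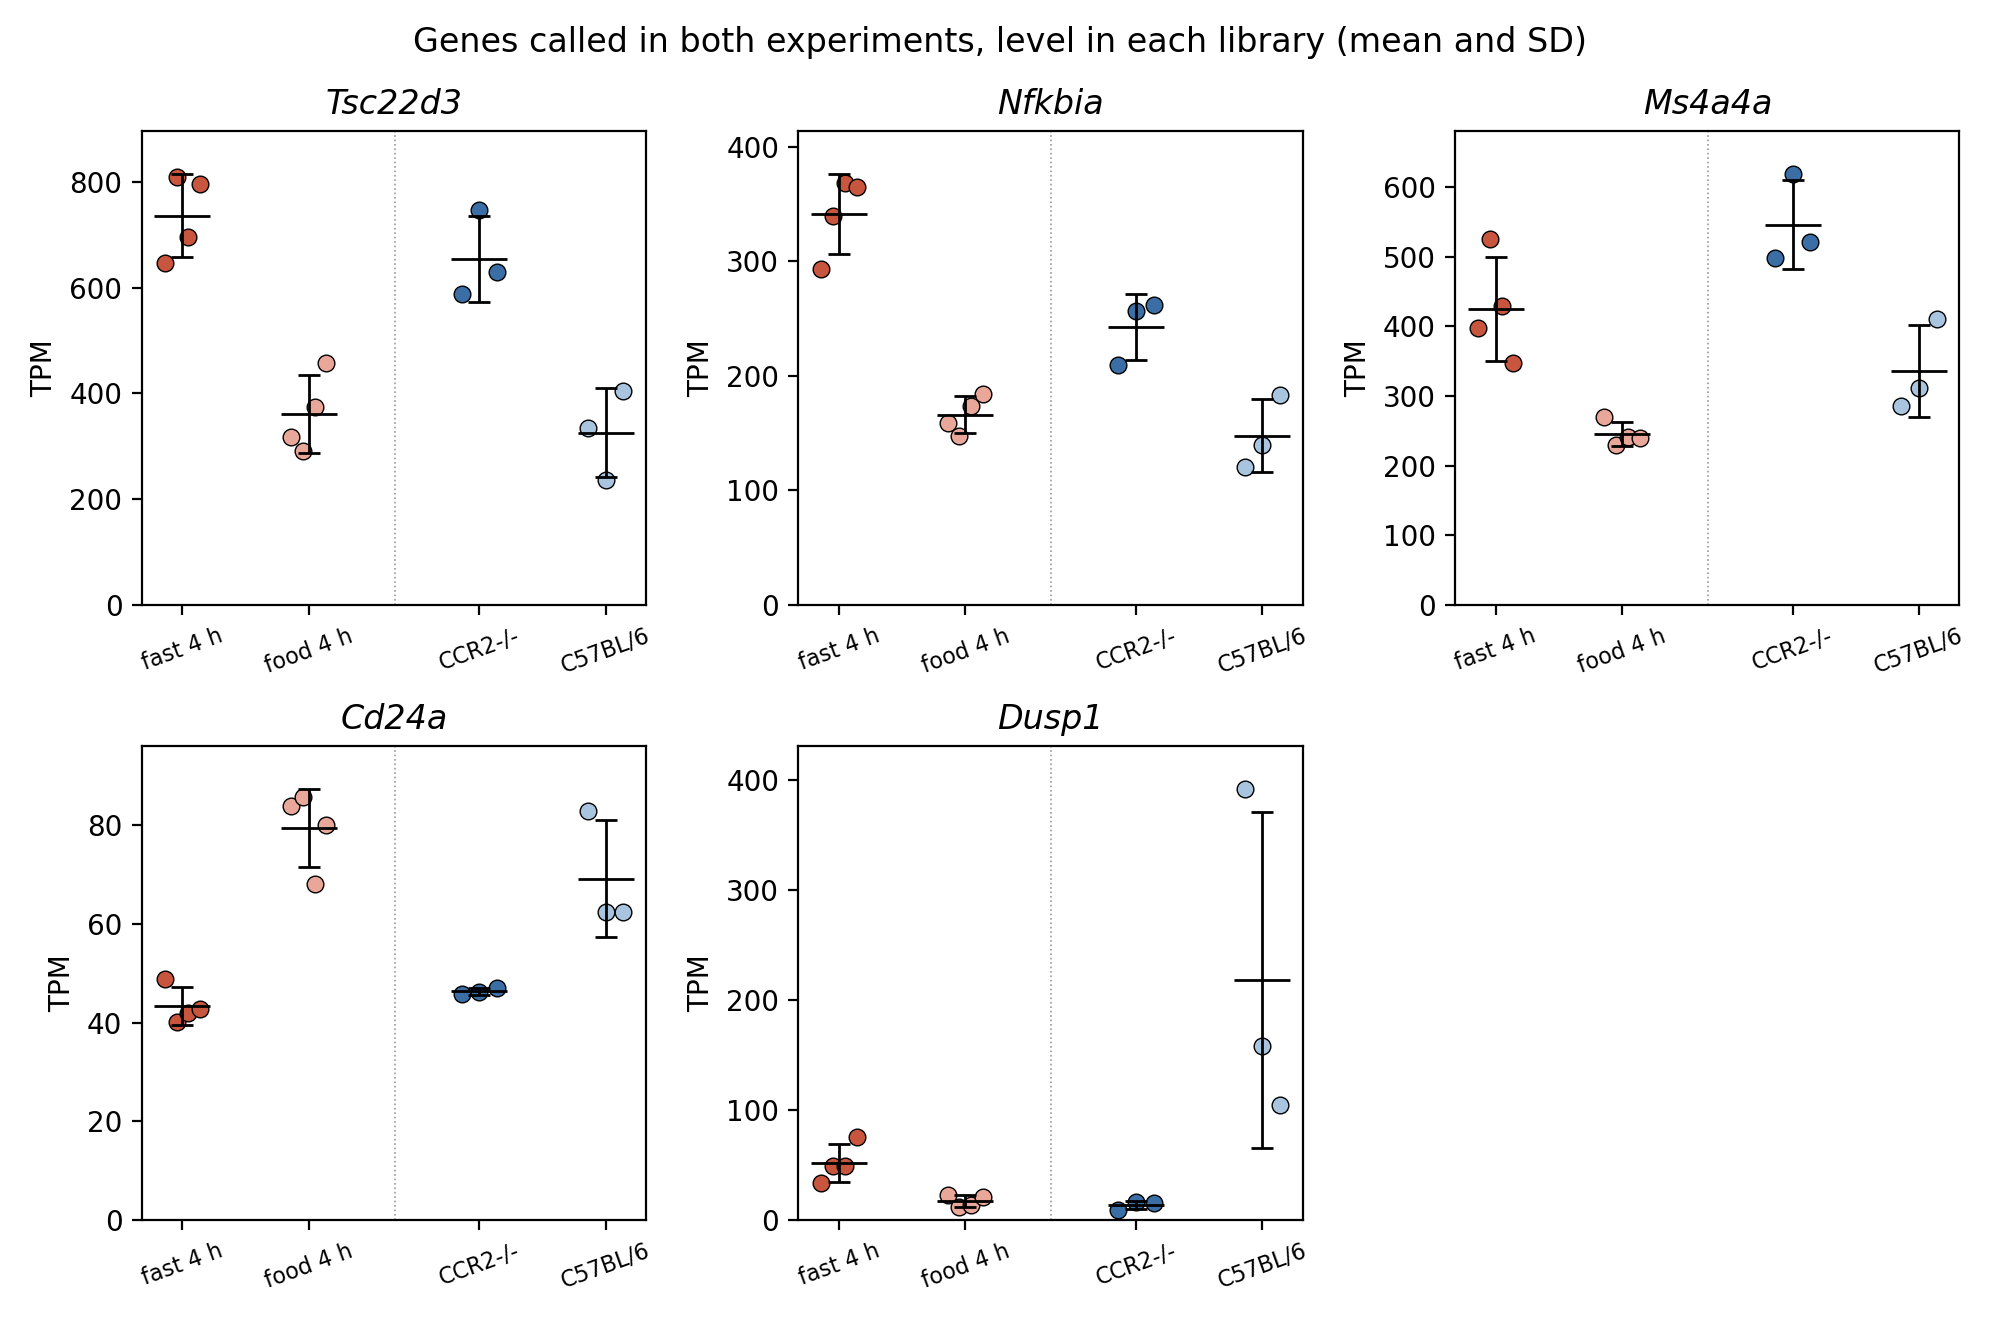
TPM of the 5 genes called in both experiments, with 1 point per library and the mean and SD of each group, fast and food libraries left of the dotted line and CCR2-/- and C57BL/6 libraries right of it. The fast and CCR2-/- libraries lie above their controls for Tsc22d3, Nfkbia and Ms4a4a and below them for Cd24a, and the C57BL/6 libraries are high for Dusp1, at 104 to 392 TPM.

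Upstream sequence is shown for these genes because they are the ones the 2 states share, and because glucocorticoid, NF-kB and cAMP signals are known to act on several of them. The 250 bases before the RefSeq start site (GRCm38.p6, on the gene's strand, 5′ to 3′) were searched on both strands for 5 motifs. The palindromic glucocorticoid response element is in 0.387% of all 32851 such windows, TGACGTCA, the cAMP response element, in 1.55%, and CACGTG, an E-box, in 6.02%. The kappa B consensus is in 1.41% and TCACNCCAC, a sterol response element, in 1.05%. Capitals mark the matches.
Dusp1, chr17:26508473-26508722, minus strand: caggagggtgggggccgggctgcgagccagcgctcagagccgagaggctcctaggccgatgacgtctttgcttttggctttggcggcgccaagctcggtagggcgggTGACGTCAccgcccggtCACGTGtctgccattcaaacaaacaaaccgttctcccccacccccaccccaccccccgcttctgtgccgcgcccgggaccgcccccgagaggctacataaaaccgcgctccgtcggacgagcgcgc
Nfkbia, chr12:55492648-55492897, minus strand: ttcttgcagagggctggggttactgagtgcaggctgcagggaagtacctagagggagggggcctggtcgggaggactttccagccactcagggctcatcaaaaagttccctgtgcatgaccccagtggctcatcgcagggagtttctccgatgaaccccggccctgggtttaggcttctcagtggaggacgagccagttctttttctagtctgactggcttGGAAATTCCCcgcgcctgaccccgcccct
Ms4a4a, chr19:11375238-11375487, plus strand: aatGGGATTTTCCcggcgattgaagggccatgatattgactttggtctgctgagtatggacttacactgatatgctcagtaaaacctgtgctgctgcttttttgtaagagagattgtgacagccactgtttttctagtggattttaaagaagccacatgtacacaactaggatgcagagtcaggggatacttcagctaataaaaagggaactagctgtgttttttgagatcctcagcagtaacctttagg
Tsc22d3, chrX:140542669-140542918, minus strand: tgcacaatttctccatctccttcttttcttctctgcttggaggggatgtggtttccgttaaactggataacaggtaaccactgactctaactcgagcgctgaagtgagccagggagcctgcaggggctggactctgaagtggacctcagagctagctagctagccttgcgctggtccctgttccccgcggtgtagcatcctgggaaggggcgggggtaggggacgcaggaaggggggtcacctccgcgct

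The Dusp1 window holds a cAMP response element 143 bases and an E-box 126 bases before the start site. The Nfkbia window holds a kappa B site 29 bases before the start, and the Ms4a4a window holds one 247 bases before it. The Tsc22d3 window, the first of 3 starts in the table, holds none of the 5 motifs, nor do the windows of its other starts. These are matches of letters in a short window and say nothing of binding.

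The second question was where the states part. The difference between the contrasts, fitted over all 14 libraries, was called for 15 of 9123 genes (0.164%), 8 above 0 (0.0877%) and 7 below (0.0767%). Besides Ccr2 and Dusp1, those above 0 include Jun, Junb and Ier2, which are immediate early genes, Fkbp5, a glucocorticoid-induced co-chaperone of the glucocorticoid receptor, and Ace, which encodes angiotensin-converting enzyme. Those below 0 include Ddx28, Dpep2, Clec10a, Tmem181b-ps and 2010315B03Rik, of which the last has the same value in every library as a second symbol, CAAA01180111.1. The difference stayed called in all 14 fits with 1 library left out for Ccr2, Dusp1, Ddx28, Clec10a and 2010315B03Rik. For Fkbp5 it ended without CCR2-/- replicate 2 (adjusted p = 0.078), for Ace without CCR2-/- replicate 2 (0.078) or 3 (0.067), and Jun, Junb, Ier2, Dpep2 and Tmem181b-ps were each called in 3 to 9 of the 14.

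Fkbp5 shows how far the glucocorticoid-induced genes could part. It stood at 69.0, 48.1, 40.0 and 80.0 TPM in fast, against 24.3, 26.8, 26.8 and 21.6 TPM in food libraries (difference 1.17, SE 0.19, adjusted p = 0.030). In CCR2-/- it stood at 16.5, 13.2 and 18.6 TPM, against 29.0, 25.0 and 19.9 TPM in C57BL/6, also without overlap but not called (difference -0.58, SE 0.17, adjusted p = 0.073). The 2 differences were 1.75 apart (SE 0.28, adjusted p = 0.016).

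Ddx28, a mitochondrial RNA helicase, overlapped between fast (17.3, 17.0, 15.0 and 17.8 TPM) and food libraries (16.5, 17.3, 16.2 and 17.6 TPM), and it stood at 36.4, 36.2 and 38.1 TPM in CCR2-/- against 18.4, 17.7 and 18.6 TPM in C57BL/6 (difference 0.98, SE 0.09, adjusted p = 0.0032). For this gene it is the CCR2-/- libraries that stand out from all others. Ddx28 lies inside the span of Dus2, which was also called higher with CCR2 loss (0.69), and how reads of these genes were divided is unknown.

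The immediate early genes Ier2 and Junb, which encode a nuclear regulator and an AP-1 subunit, had the opposite layout. Ier2 stood at 266, 236, 223 and 272 TPM in fast and 309, 270, 292 and 263 TPM in food libraries, and at 271, 256 and 269 TPM in CCR2-/- against 960, 673 and 531 TPM in C57BL/6 libraries. Junb stood at 204, 183, 183 and 217 TPM in fast and 256, 201, 225 and 212 TPM in food libraries, and at 212, 214 and 239 TPM in CCR2-/- against 731, 552 and 403 TPM in C57BL/6 libraries. For both it was the C57BL/6 libraries that lay above all others. Dpep2, a membrane dipeptidase, stood at 44.4, 49.5, 38.7 and 39.3 TPM in fast, against 29.4, 36.3, 36.2 and 34.2 TPM in food libraries (difference 0.33, SE 0.11, adjusted p = 0.23). In CCR2-/- Dpep2 stood at 115, 118 and 138 TPM, against 49.6, 55.1 and 59.9 TPM in C57BL/6 libraries (difference 1.16, SE 0.10, adjusted p = 0.0031). Its groups were apart in the same direction in both experiments, by more with CCR2 loss (difference of the contrasts -0.83, SE 0.16, adjusted p = 0.047).

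**Figure D3:**
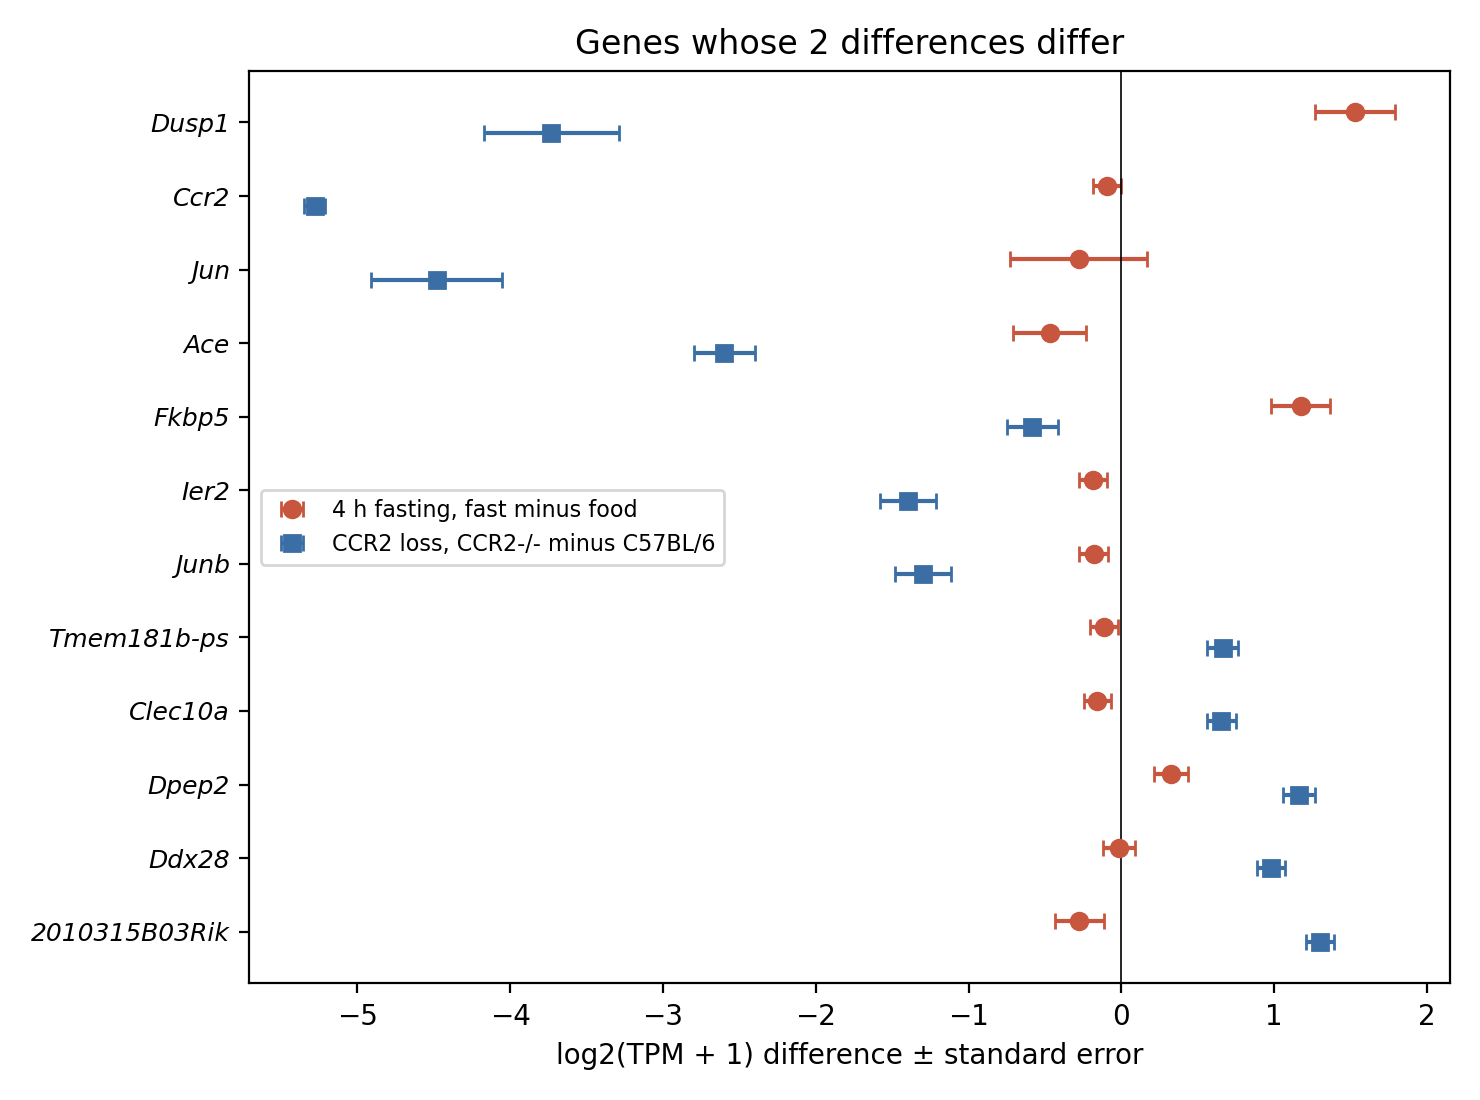
Log2(TPM + 1) differences with their standard errors for genes with distinct values whose fasting and CCR2 differences differ, fasting as red circles and CCR2 loss as blue squares. Of those drawn, only Dusp1 was called in both; the fasting differences of Ddx28, Clec10a, Tmem181b-ps, Ier2, Junb and Ccr2 lie close to 0.

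Of the 40 gene lists, glucocorticoid-induced genes had the most calls at 4 h. Of 14 measured members of the list, 6 were called higher with fasting and none lower, where 0.265% of all genes were called higher, and the median of the list was 0.30 beside -0.08 for all genes. Besides Tsc22d3, Nfkbia, Dusp1 and Fkbp5 these were Per1, a repressor of the circadian clock, and Klf9, a zinc finger transcription factor. Per1 stood at 19.3, 15.4, 27.8 and 35.3 TPM in fast, against 7.07, 9.02, 5.60 and 7.38 TPM in food libraries (difference 1.57, SE 0.23, adjusted p = 0.016). Klf9 stood at 12.4, 12.0, 16.9 and 20.5 TPM in fast, against 6.62, 9.47, 6.72 and 6.90 TPM in food libraries (difference 0.95, SE 0.18, adjusted p = 0.047). Fasted libraries were above fed ones for each of the 6 genes. With 1 library left out, Per1 was called in 6 of 8 fits, Fkbp5 in 3 and Klf9 in 2. With CCR2 loss 3 of the 14 were called higher (Tsc22d3, Nfkbia and Ms4a7) and 2 lower (Dusp1 and the cell cycle inhibitor Cdkn1a), where 0.641% of all genes were called higher and 3.74% lower, and the median was 0.13. Per1 differed by 0.62 (SE 0.25, adjusted p = 0.15) and Klf9 by 0.03 (SE 0.11, adjusted p = 0.89). With 1 library left out, 2 to 6 of the 14 were called higher with fasting, fewest without food replicate 3, and 0 to 4 with CCR2 loss, with 0 without CCR2-/- replicate 2 or 3 or C57BL/6 replicate 1 or 2.

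Among genes of cholesterol synthesis, 4 of 21 measured members fell in fasted monocytes and none rose, where 0.159% of all genes were called lower. Of the 21, 12 had fast libraries entirely below food libraries, where 6.37% of all genes did. The median difference was -0.51 beside -0.08 for all genes. Fdps, the farnesyl diphosphate synthase, stood at 90.1, 83.5, 103 and 103 TPM in fast, against 162, 171, 144 and 159 TPM in food libraries (difference -0.74, SE 0.09, adjusted p = 0.0053). Sqle, the squalene epoxidase, stood at 7.12, 5.59, 6.19 and 6.56 TPM, against 10.6, 14.3, 9.36 and 13.3 TPM with food (difference -0.79, SE 0.15, adjusted p = 0.047). The isomerase Idi1 (difference -0.71, SE 0.13) and Insig1, the sterol sensor that holds SREBP in the endoplasmic reticulum (difference -0.55, SE 0.10), also fell, each with an adjusted p of 0.046. In each fit without 1 library from 1 to 4 were called, and Fdps was called in all 8. Under quantile normalization, median centring or the length correction 1 of the 21 was called, and the median was -0.47, -0.47 and -0.44.

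With CCR2 loss 18 of the 21 genes of this list had the same sign as with fasting, beside 65.2% of all genes. The difference between the contrasts was called for none of them. The median of the list with CCR2 loss was -0.16, beside -0.03 for all genes, with 3 of 21 called lower and none higher. The share of all genes called with CCR2 loss was 3.74% lower and 0.641% higher. Srebf2, the transcription factor of the pathway, stood at 20.3, 14.3 and 15.3 TPM in CCR2-/-, against 37.3, 36.1 and 30.1 TPM in C57BL/6 (difference -1.02, SE 0.15, adjusted p = 0.032). It was lower on fasting too, without being called (-0.59, SE 0.16, adjusted p = 0.14). Fdps, by contrast, overlapped: 97.4, 113 and 132 TPM in CCR2-/-, against 110, 107 and 138 TPM in C57BL/6 (difference -0.05, SE 0.14, adjusted p = 0.84). For Fdps the 2 differences were 0.69 apart (SE 0.16, adjusted p = 0.16), so a difference between the states was not established. None of the 3 calls held without CCR2-/- replicate 3 or without C57BL/6 replicate 1.

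Of 9 measured receptors for chemotactic signals, 6 had positive differences in each contrast, and 2 were called higher with fasting and another 2 with CCR2 loss, where Ccr2 was called lower. Of all 9123 genes 2977 had a positive difference with fasting and 4033 with CCR2 loss, and 0.265% were called higher at 4 h, 0.641% higher and 3.74% lower with CCR2 loss. The list's median was 0.39 with fasting and 0.29 with CCR2 loss. With fasting Fpr1 and Fpr2, receptors for formyl peptides of bacteria and mitochondria, rose. Fpr2 stood at 41.6, 47.6, 46.8 and 26.7 TPM in fast, against 13.5, 10.6, 10.7 and 11.3 TPM in food libraries (difference 1.71, SE 0.17, adjusted p = 0.0019). Fpr1 stood at 9.84, 10.5, 9.18 and 4.97 TPM, against 3.89, 2.23, 2.73 and 2.85 TPM with food (difference 1.27, SE 0.22, adjusted p = 0.032). Their differences with CCR2 loss were 0.66 for Fpr2 (SE 0.32, adjusted p = 0.21) and 0.82 for Fpr1 (SE 0.28, adjusted p = 0.11). The call of Fpr1 ended in 5 of the 8 fits with 1 library left out, with an adjusted p of up to 0.12 without fast replicate 3.

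The receptors that rose with CCR2 loss include Ccr1, a receptor for CCL3 and CCL5 that is encoded near Ccr2. It stood at 178, 178 and 186 TPM in CCR2-/-, against 114, 95.9 and 88.6 TPM in C57BL/6 (difference 0.86, SE 0.10, adjusted p = 0.015). With fasting Ccr1 overlapped, at 114, 106, 92.7 and 97.0 TPM in fast and 72.8, 72.4, 68.1 and 101 TPM in food libraries (difference 0.39, SE 0.12, adjusted p = 0.20). Food replicate 4 alone reached the fast range. The difference of the contrasts was not called for Ccr1 (-0.47, SE 0.18, adjusted p = 0.32). Cxcr4, the receptor that retains leukocytes in marrow, differed by 0.29 with fasting (SE 0.14, adjusted p = 0.35) and by 0.20 with CCR2 loss (SE 0.13, adjusted p = 0.36). The call of Ccr1 with CCR2 loss ended without CCR2-/- replicate 2 (adjusted p = 0.079) or 3 (0.11).

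**Figure D4:**
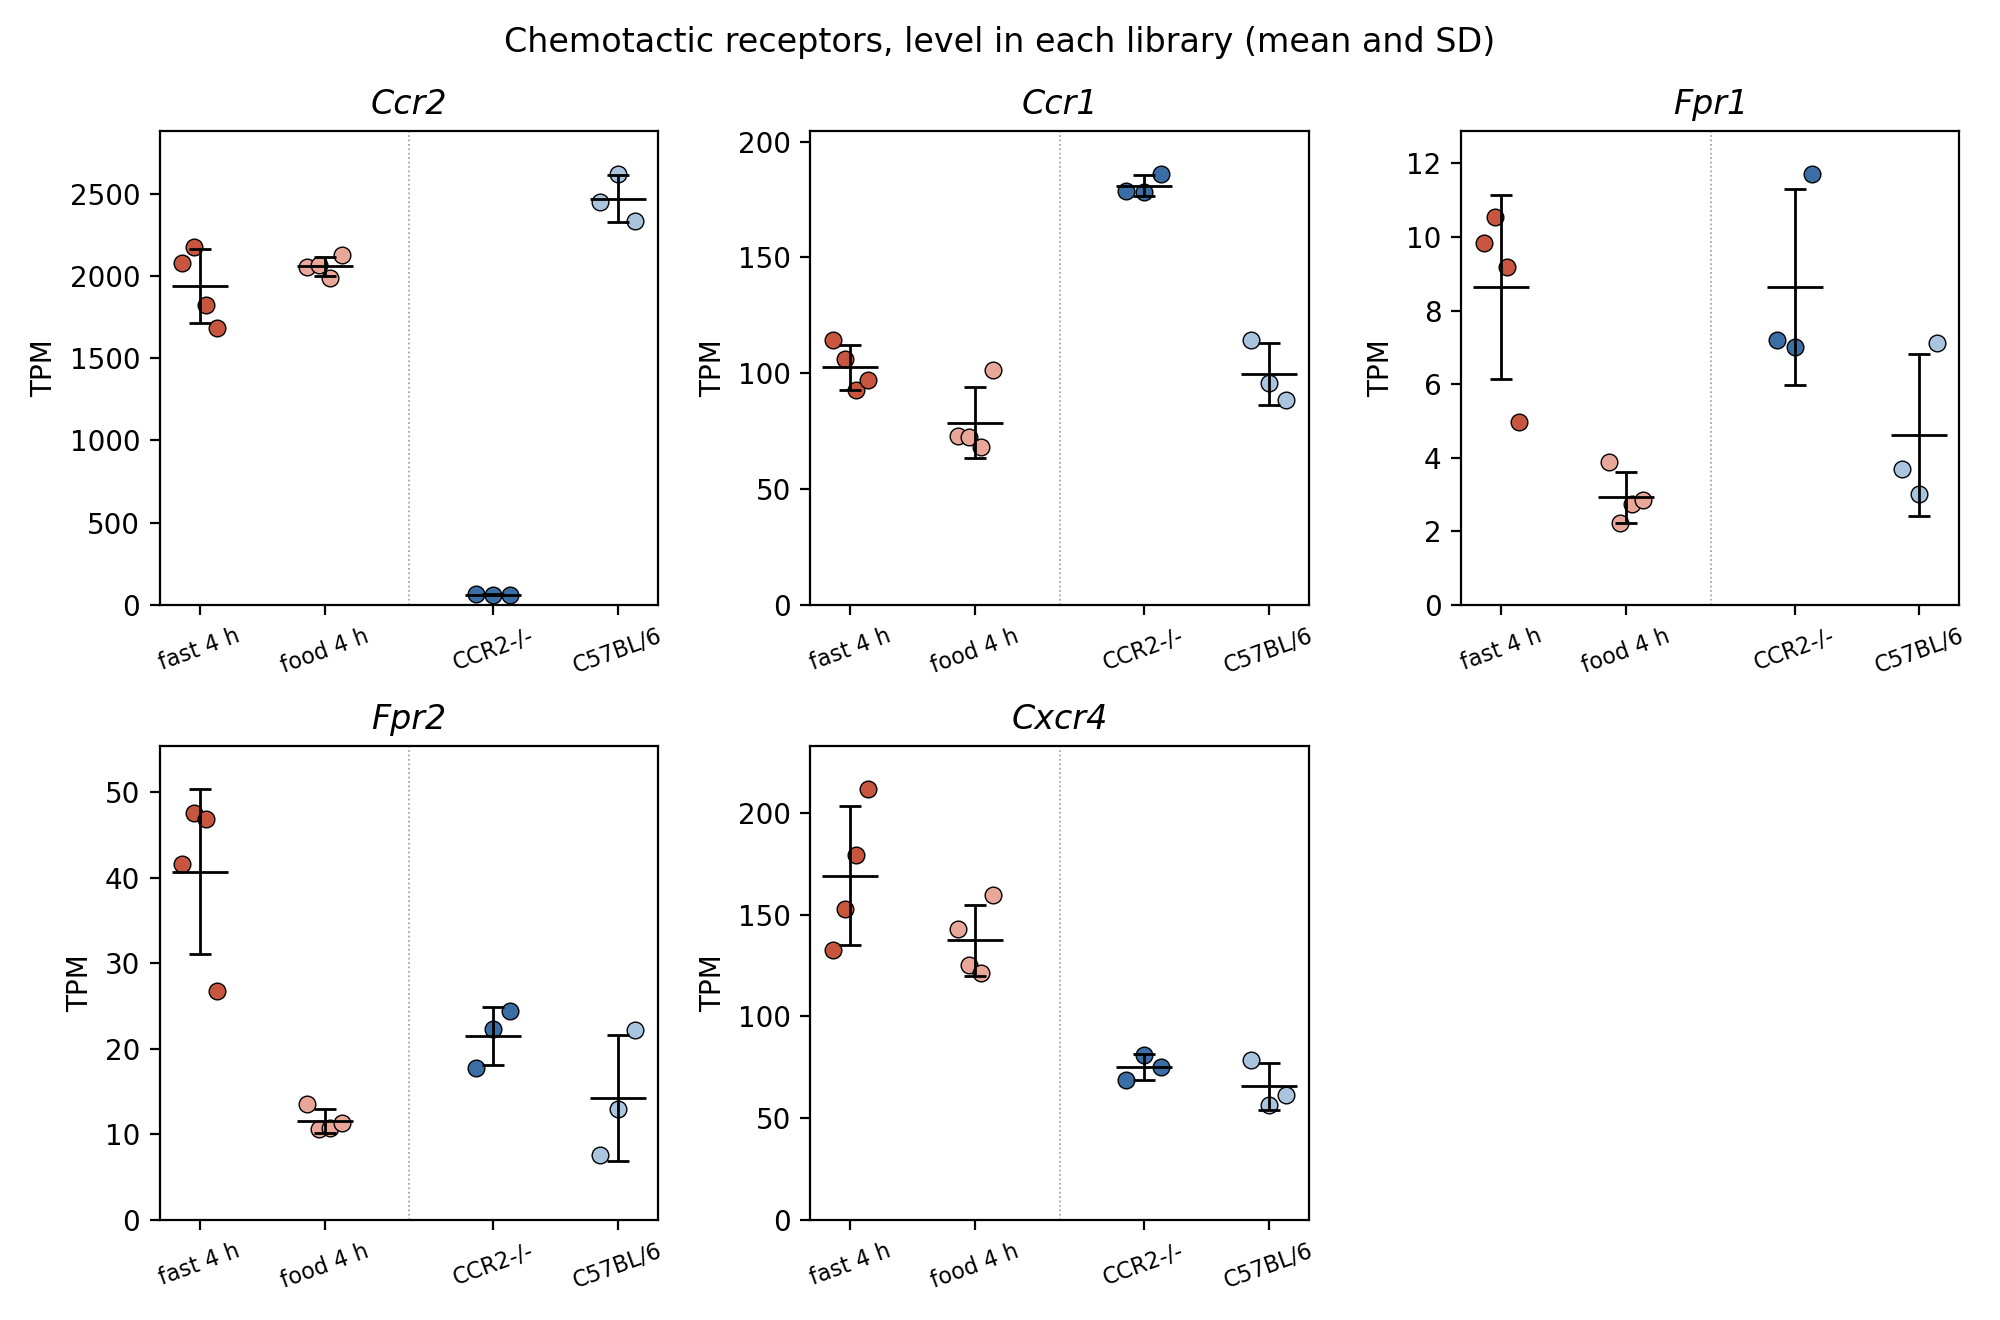
TPM of 5 chemotactic receptors, with 1 point per library and the mean and SD of each group, fast and food libraries left of the dotted line and CCR2-/- and C57BL/6 libraries right of it. Ccr2 is at 60.8 to 64.7 TPM in CCR2-/-, Ccr1 is higher in CCR2-/- than in C57BL/6, Fpr1 and Fpr2 are higher in fast than in food libraries, and the groups of Cxcr4 overlap.

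Of 33 measured genes of classical monocytes, 27 had a positive difference with fasting (median 0.19) and 25 with CCR2 loss (median 0.23), against 2977 and 4033 of all 9123 genes. With fasting 3 were called higher and none lower, and with CCR2 loss none was called higher and 4 lower, where 0.265% of all genes were called higher at 4 h, and 0.641% higher and 3.74% lower with CCR2 loss. The CCR2 median was 0.11 without C57BL/6 replicate 1, and 5 were called higher without C57BL/6 replicate 3. Fasting raised Vcan, the matrix proteoglycan versican, Chil3, a chitinase-like protein of inflammatory monocytes, and Hp, haptoglobin. Vcan stood at 40.6, 58.4, 52.7 and 60.0 TPM in fast, against 22.5, 22.9, 16.2 and 14.5 TPM in food libraries (difference 1.44, SE 0.17, adjusted p = 0.0042). With CCR2 loss Vcan overlapped, at 26.2, 27.6 and 20.8 TPM in CCR2-/- and 14.2, 13.1 and 25.1 TPM in C57BL/6 (difference 0.53, SE 0.23, adjusted p = 0.18). Chil3 stood at 8691, 6773, 6453 and 6093 TPM in fast, against 4515, 2998, 3472 and 3498 TPM in food libraries (difference 0.95, SE 0.14, adjusted p = 0.015). CCR2-/- libraries held 6186, 6033 and 8529 TPM of Chil3 and C57BL/6 libraries 2999, 3388 and 6909 TPM, where C57BL/6 replicate 3 alone reached the CCR2-/- range (difference 0.73, SE 0.30, adjusted p = 0.16). Reads of Chil3 and its near copy Chil4 may have been divided between them, and the call of Chil3 ended with the length correction (adjusted p = 0.21). Hp differed by 0.38 with fasting (SE 0.07, adjusted p = 0.046) and by 0.33 with CCR2 loss (SE 0.12, adjusted p = 0.11), and its fasting call held in 1 of the 8 fits with a library left out. With CCR2 loss 4 of the 33 were called lower: Ccr2 itself, Fn1, which encodes fibronectin (-1.22, SE 0.26, adjusted p = 0.047), Irf8, a transcription factor of monocyte fate (-0.66), and Sirpa, an inhibitory receptor (-0.47). Fasting calls in the list numbered 1 to 3 with 1 library left out, fewest without food replicate 3. Besides Ccr2, none of the 4 lower genes was called without CCR2-/- replicate 2 or 3 or C57BL/6 replicate 1 or 2.

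Members of the MS4A and S100 surface and calcium-binding families leaned the same way in both states. Of 13 measured, 12 had a positive difference with fasting and 13 with CCR2 loss, against 2977 and 4033 of all 9123 genes. The median was 0.34 in both. With fasting Ms4a4a and Ms4a8a were called higher, where 0.265% of all genes were. With CCR2 loss Ms4a4a and Ms4a7 were called higher, where 0.641% of all genes were. Neither call with CCR2 loss held in every fit with 1 library left out. The fasting call held in 5 of 8 such fits for Ms4a4a and in all 8 for Ms4a8a. Ms4a8a stood at 163, 213, 196 and 217 TPM in fast, against 113, 118, 110 and 102 TPM in food libraries (difference 0.82, SE 0.10, adjusted p = 0.0052), and it differed by 0.21 with CCR2 loss (SE 0.15, adjusted p = 0.40). Ms4a7 stood at 9.26, 11.8 and 12.8 TPM in CCR2-/-, against 3.62, 5.79 and 6.81 TPM in C57BL/6 (difference 0.96, SE 0.21, adjusted p = 0.048), and it differed by 0.06 with fasting (SE 0.29, adjusted p = 0.92).

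Of 19 measured markers of nonclassical, patrolling monocytes, 7 were called lower and 1 higher with CCR2 loss (median -0.38), and none was called with fasting (median 0.01). Of all genes 3.74% were called lower and 0.641% higher with CCR2 loss and 0.424% were called at 4 h, with medians of -0.03 and -0.08. Ace stood at 6.76, 4.04 and 3.70 TPM in CCR2-/-, against 36.8, 34.7 and 29.2 TPM in C57BL/6 (difference -2.60, SE 0.20, adjusted p = 0.0013). In the other experiment it stood at 24.3, 20.5, 25.5 and 36.6 TPM in fast, against 23.5, 38.4, 36.6 and 54.0 TPM in food libraries (difference -0.47, SE 0.24, adjusted p = 0.36). Eno3, a glycolytic enolase, stood at 5.39, 4.53 and 5.57 TPM in CCR2-/-, against 14.6, 15.8 and 15.7 TPM in C57BL/6 (difference -1.41, SE 0.12, adjusted p = 0.0024). Ace and Eno3 held their calls in every fit with 1 library left out, and the number of lower calls in the list was 2 without CCR2-/- replicate 2 or 3 or C57BL/6 replicate 1 or 2. The defining receptor Cx3cr1 did not go with them: 257, 227 and 194 TPM in CCR2-/-, against 203, 257 and 222 TPM in C57BL/6 (difference -0.01, SE 0.12, adjusted p = 0.96).

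The member that rose was Apoe, the lipid carrier apolipoprotein E, which is also a macrophage gene. It stood at 1729, 1947 and 1977 TPM in CCR2-/-, against 653, 797 and 830 TPM in C57BL/6 (difference 1.31, SE 0.10, adjusted p = 0.0013), a call that held in each of the 6 fits. Fast libraries held 1500, 1152, 1277 and 1183 TPM of Apoe, above food libraries with 666, 581, 756 and 1045 TPM, without a call (difference 0.77, SE 0.16, adjusted p = 0.079). Of 18 macrophage markers 6 were listed in both experiments, not the complement genes C1qa, C1qb and C1qc. Among the 6, Apoe, Trf and Mrc1 were called higher with CCR2 loss, where 0.641% of all genes were. The summed level of the macrophage markers listed in each experiment was 1700 to 2134 TPM in fast and 1055 to 1617 TPM in food libraries (8 genes), and 2467 to 2730 TPM in CCR2-/- and 1239 to 1420 TPM in C57BL/6 libraries (6 genes). Most of that level is Apoe, and the part of other cells in these results was not tested.

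Of 12 measured genes of MHC class II and of monocyte-derived dendritic cells, 6 were called higher with CCR2 loss (median 0.69), against none with fasting (median -0.05), where 0.641% of all genes were called higher with CCR2 loss and 0.265% at 4 h. H2-Aa, the alpha chain of I-A, stood at 272, 292 and 240 TPM in CCR2-/-, against 108, 167 and 133 TPM in C57BL/6 (difference 0.99, SE 0.15, adjusted p = 0.035). In the 4 h experiment H2-Aa spread widely in both groups, at 236, 277, 226 and 137 TPM in fast and 212, 330, 216 and 156 TPM in food libraries (difference -0.06, SE 0.27, adjusted p = 0.92). Clec10a, a lectin of dendritic cells and macrophages, stood at 94.6, 81.4 and 82.4 TPM in CCR2-/-, against 52.0, 52.1 and 58.7 TPM in C57BL/6 (difference 0.66, SE 0.10, adjusted p = 0.031), and its difference between the contrasts was called (-0.81, SE 0.12, adjusted p = 0.0071). For H2-Aa that difference was not (-1.05, SE 0.35, adjusted p = 0.27). Flt3, a cytokine receptor of dendritic cell progenitors, rose with CCR2 loss (0.73, SE 0.11, adjusted p = 0.032), and on fasting its libraries, at 31.0, 39.4, 14.6 and 19.2 TPM, lay above those with food, at 11.1, 12.0, 12.2 and 10.2 TPM, without a call (difference 1.03, SE 0.25, adjusted p = 0.13). No member was called without CCR2-/- replicate 2 or 3 or without C57BL/6 replicate 1. The summed level of 7 dendritic cell markers was 369 to 524 TPM in CCR2-/- and 266 to 352 TPM in C57BL/6 libraries, and 329 to 437 TPM in fast and 267 to 388 TPM in food libraries, and its part in the result was not tested.

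Of 15 measured immediate early genes, which are transcribed within minutes of a stimulus, 11 were called lower in CCR2-/- and none higher (median -1.37), against 1 called higher with fasting, Dusp1, and none lower (median -0.18). Of all genes 3.74% were called lower with CCR2 loss and 0.265% higher at 4 h, with medians of -0.03 and -0.08. Fos stood at 56.8, 88.0 and 79.2 TPM in CCR2-/-, against 1218, 473 and 354 TPM in C57BL/6 (difference -2.99, SE 0.41, adjusted p = 0.028). Jun stood at 7.46, 7.66 and 13 TPM in CCR2-/-, against 434, 221 and 117 TPM in C57BL/6 (difference -4.48, SE 0.43, adjusted p = 0.0054). In the 4 h experiment Fos stood at 66.7, 81.9, 78.4 and 131 TPM in fast and 148, 47.6, 66.8 and 74.8 TPM in food libraries (difference 0.17, SE 0.36, adjusted p = 0.83).

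The whole list puts the C57BL/6 libraries apart. Its summed level was 1208 to 1239 TPM in CCR2-/- and 2458 to 5833 TPM in C57BL/6 libraries (16 genes), while it was 1155 to 1373 TPM in fast and 1241 to 1456 TPM in food libraries (17 genes). The level of CCR2-/- monocytes was near that of fed wild-type monocytes of the other experiment, a table normalized apart from theirs, and C57BL/6 replicate 1 was the highest library for Fos, Jun, Dusp1 and Nr4a1. Without C57BL/6 replicate 1, 6 of the 15 genes were called lower, without C57BL/6 replicate 2 there were 2, without CCR2-/- replicate 3 there was 1 and without CCR2-/- replicate 2 there were none.

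Of 26 measured genes of adhesion and egress, 6 were called lower with CCR2 loss and none higher (median -0.15). None was called with fasting (median -0.16), which is near the 0.424% of all genes called at 4 h. Of all genes 3.74% were called lower with CCR2 loss, and the medians of all genes were -0.03 with CCR2 loss and -0.08 with fasting. Of the 26 genes 22 had the same sign in both contrasts, beside 65.2% of all genes. Without fast replicate 2 the fasting median of the list was -0.08. The called genes include Itgal, the alpha chain of LFA-1, with 73.7, 59.0 and 62.7 TPM in CCR2-/-, against 113, 119 and 103 TPM in C57BL/6 (difference -0.77, SE 0.10, adjusted p = 0.024). Itgb7, an integrin beta chain (-0.89, SE 0.15, adjusted p = 0.042), Tln1, the integrin activator talin (-1.02, SE 0.22, adjusted p = 0.048), and Klf2, a transcription factor of leukocyte egress (-0.93, SE 0.19, adjusted p = 0.046), also fell. No adhesion gene was called lower with CCR2-/- replicate 2 or 3 or C57BL/6 replicate 1 or 2 left out.

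Other groups shifted by small amounts in which few single genes passed. Of 72 cytosolic ribosomal protein genes 64 had a positive difference with fasting (median 0.30) and 71 with CCR2 loss (median 0.25), with none called at 4 h and 1, Rpl37, with CCR2 loss. Of all 9123 genes 2977 and 4033 were positive, and the share called was 0.424% at 4 h and, with CCR2 loss, 0.641% higher and 3.74% lower. The CCR2 median of the ribosomal list was 0.12 without C57BL/6 replicate 1. Without C57BL/6 replicate 3, 9 of its genes were called higher, as were 116 of all 9210 genes. At 4 h 5 were called higher and 2 lower without fast replicate 1, as were 90 and 55 of all 9428 genes. The fasting median was 0.20 without food replicate 4. With the length correction the medians were 0.23 and 0.29. Of 31 genes of progenitors and proliferation 27 were negative with fasting (median -0.29) and 29 with CCR2 loss (median -0.27). None of them was called at 4 h and 2 were called lower with CCR2 loss, where 3.74% of all genes were. Of 48 interferon-stimulated genes, 9 were positive with fasting (median -0.16) and 45 with CCR2 loss (median 0.33). Of these 48 none was called at 4 h, and with CCR2 loss 1, the peptide transporter Tap1, was called, lower (-0.69, SE 0.09, adjusted p = 0.024). Ifit3, an antiviral member, stood at 124, 198, 144 and 94.4 TPM in fast and 191, 206, 184 and 118 TPM in food libraries, with overlap. It stood at 230, 268 and 186 TPM in CCR2-/-, against 78.0, 167 and 115 TPM in C57BL/6, without a call (difference 0.97, SE 0.25, adjusted p = 0.059).

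**Figure D5:**
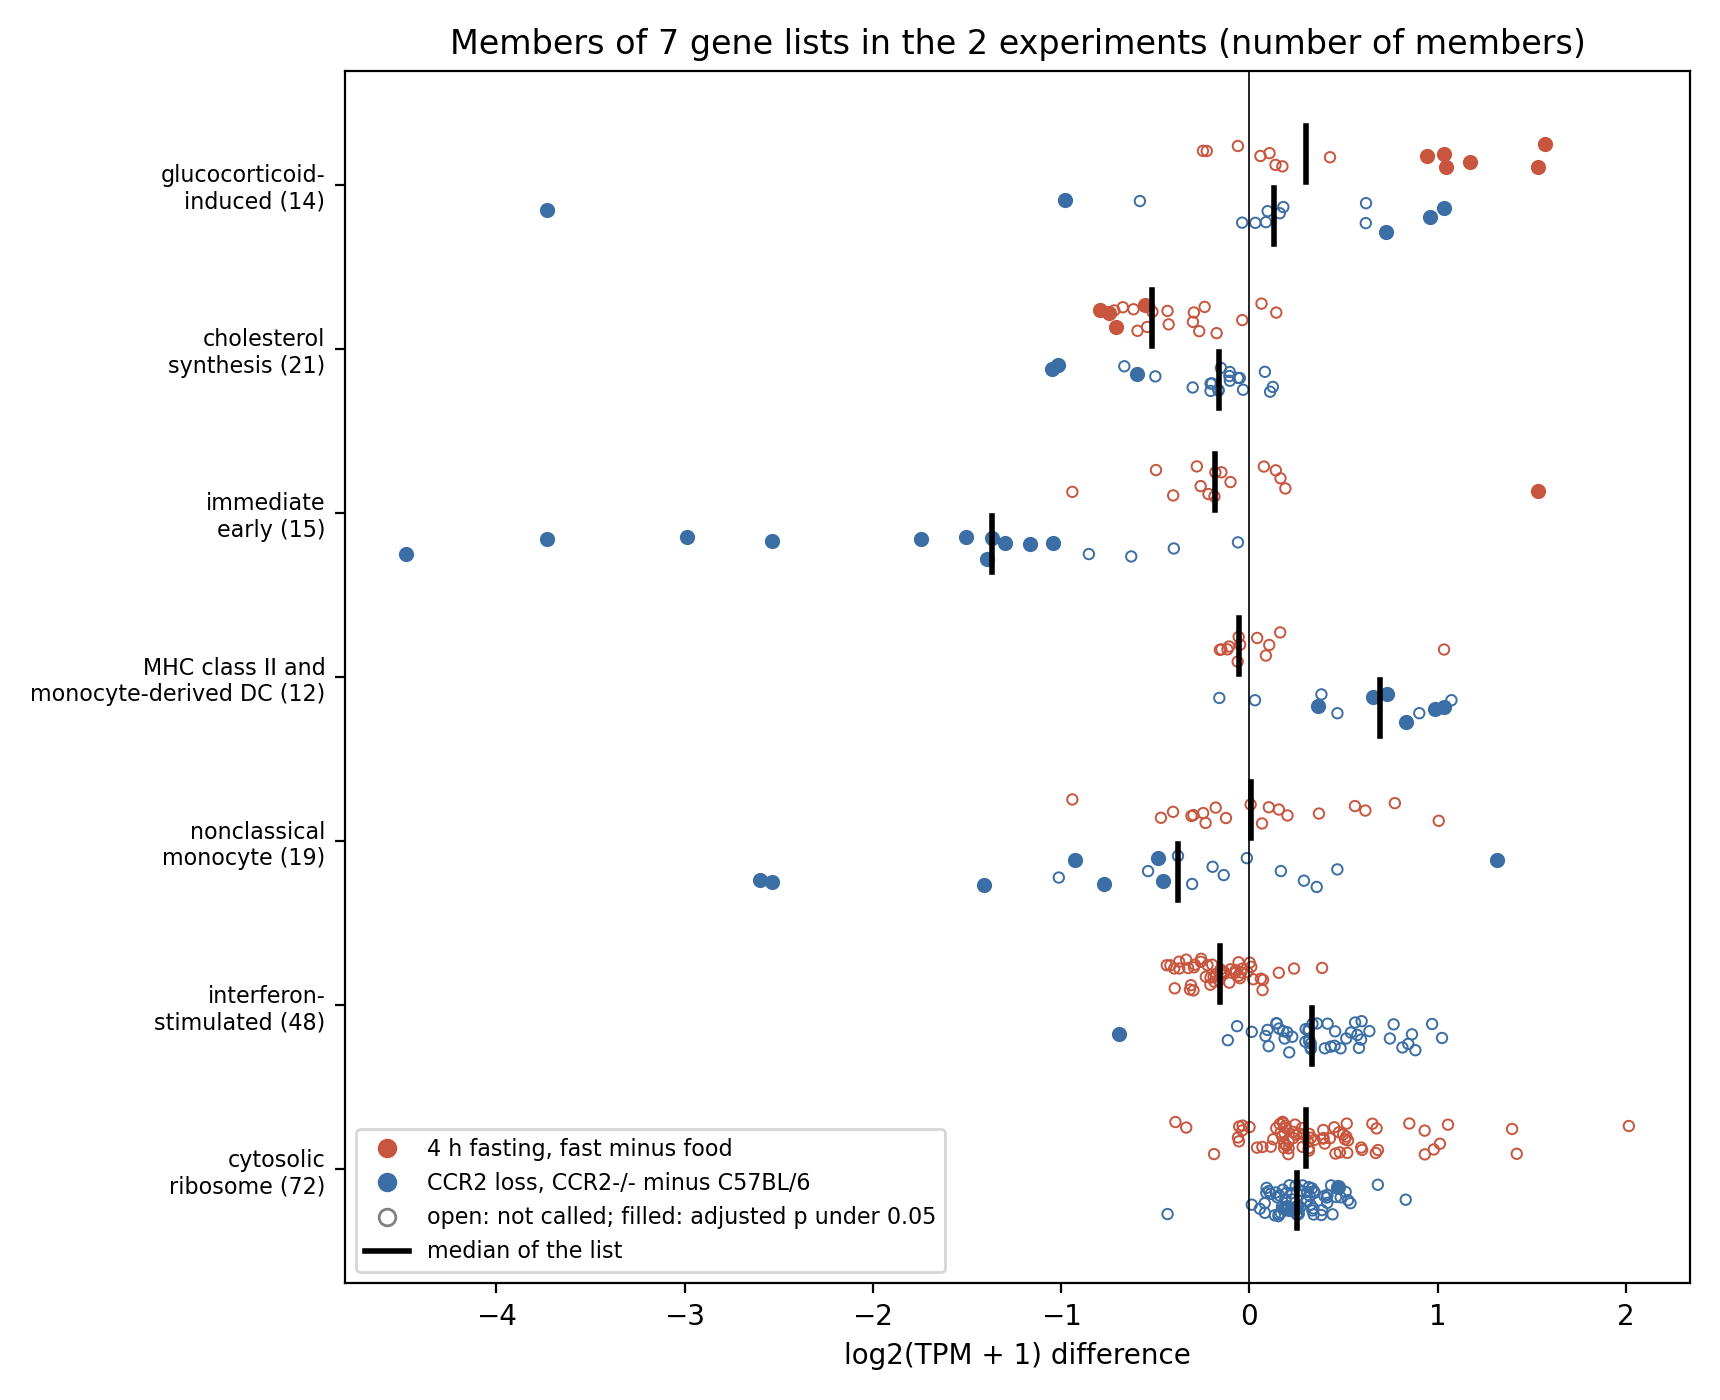
Log2(TPM + 1) differences of the members of 7 gene lists, fasting in red above CCR2 loss in blue, filled where called and with a black bar at the median. With fasting 6 glucocorticoid-induced and 4 cholesterol genes are filled, with CCR2 loss 11 immediate early and 6 MHC class II and dendritic cell genes, and the 2 medians lie on opposite sides of 0 for interferon-stimulated genes and on the same side for ribosomal protein genes.

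Marrow monocytes after 17 h of fasting (fast n = 4, food n = 3) gave the shared genes in other libraries. Fed libraries of this experiment stand apart, with a median of 15.5 to 17.2 TPM, against 34.5 to 37.1 TPM in the fasted libraries, and 89.5% of genes were called, 6888 of them (75.4%) higher and 1283 lower (3860 and 2942 under quantile normalization), so values alone are given. Tsc22d3 stood at 303, 528, 521 and 697 TPM in fasted and 87.5, 87.0 and 136 TPM in fed libraries, and Ms4a4a at 619, 760, 749 and 614 TPM in fasted and 204, 208 and 205 TPM in fed libraries. Nfkbia stood at 215, 258, 250 and 326 TPM in fasted and 139, 139 and 209 TPM in fed libraries. Cd24a overlapped, at 37.3, 22.5, 23.4 and 26.0 TPM in fasted and 37.6, 30.5 and 42.6 TPM in fed libraries. The 3 genes that were higher at 4 h were thus higher at 17 h in every fasted library than in any fed library. Since 75.4% of genes were called higher there, this does not set the 3 apart from other genes.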

How the data were processed

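RNA of marrow monocytes was made into libraries with a low input kit, per the labels' protocols, and kallisto 0.44.0 and GRCm38 are named in the submitters' processing notes. The authors deposited 1 table per library, and its values were read as TPM from their sums (990100 to 991672 per library in the experiments compared) and decimals, and the rule by which genes were listed is unknown. In each experiment 15 symbols turned into dates were left out (9434 and 9210 genes). Depth is unknown, so precision comes only from the spread between libraries. Where libraries of a group are not separate animals, p-values measure technical spread alone.

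Genes with a mean of at least 1 TPM were tested on log2(TPM + 1), whose differences understate changes of low genes, with limma 3.58.1 in R 4.3.3 (mean-variance trend, robust empirical Bayes, no block), within each experiment. The difference of the contrasts was fitted over all 14 libraries. The members, the 40 gene lists and the rules were chosen with earlier results of these data known. Named genes were those called in both contrasts without overlap and reaching 10 TPM on average, up to 8 on each side called for the difference, key genes, and up to 4 called members per list. Idi1, Insig1, Chil4, Ifit3, Sirpa, Ighm, Cd79b, Hba-a1 and the positional neighbours were named after their values were seen. Results of a few genes are not reported here. Lengths came from GENCODE M21 and upstream sequence from RefSeq (GRCm38.p6). RefSeq windows matched 4 of the 5 genes called in both, Cd24a being without one. Fits were also run on simulated data with known changes. The simulated noise was drawn independently for each gene, so libraries that deviate in many genes at once were not covered. Alternatives were other scalings, pseudocounts, filters, variance models and thresholds, the replicate number as a block, each library left out and, chosen after seeing the data, subtraction of a loess fit on transcript length from each library (span 0.5). Tables and figures used Python 3.11.15, pandas 2.3.3 and matplotlib 3.10.9.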

Additional observations from a re-analysis of the deposited data

Results flagged for a closer look

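In groups of 4 libraries, the highest or lowest library lay far from the other 3 for 7 of 208 gene and group pairs, where chance gives about 1 in 20. Klf4 was low in fast replicate 2 (45.8 TPM, others 61.4 to 62.3), and so was Mki67 (78.9 TPM, others 107 to 110). Trf was high in fast replicate 1 (325 TPM, others 244 to 250). Ccr1 (101 TPM, others 68.1 to 72.8) and Fcgr4 (23.3 TPM, others 12.9 to 14.1) were high in food replicate 4. Klf9 (9.47 TPM, others 6.62 to 6.90) and Scd2 (19.5 TPM, others 11.5 to 12.8) were high in food replicate 2.

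The fasting difference minus the CCR2 difference, on the log2(TPM + 1) scale, differed from 0 in limma's fit over 14 libraries for 15 symbols, of which those reported here follow. It was above 0 for Dusp1 (5.26), Ccr2 (5.19), Jun (4.20), Ace (2.13), Fkbp5 (1.75), Ier2 (1.21) and Junb (1.12). It was below 0 for 2010315B03Rik and CAAA01180111.1 (-1.57 each, with identical values), Ddx28 (-0.99), Dpep2 (-0.83), Clec10a (-0.81) and Tmem181b-ps (-0.78).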

How the results depend on the processing

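The count of genes called at 4 h (40) was 14 to 145 with 1 library left out: 145 without fast replicate 1, 24 without fast replicate 2, 18 without 3 and 26 without 4, and 14 and 15 without food replicates 2 and 3. It stayed within 1.5 times under the other settings. With CCR2 loss (403) it was 48 without a trend, 1423 with the replicate number as a block, and 11 to 1060 with 1 library left out: 1060 and 750 without CCR2-/- replicate 1 and C57BL/6 replicate 3, and 12, 11, 22 and 28 without CCR2-/- replicates 2 and 3 and C57BL/6 replicates 1 and 2. The difference of the contrasts (15) was 264 by a z of the separate fits and 8 to 26 with 1 library left out (26 without fast replicate 1, 8 and 9 without CCR2-/- replicates 2 and 3, 24 without C57BL/6 replicate 3). Genes called in both in the same direction (4) numbered 2 under quantile normalization, 0 without a trend, 9 with the block, 0 and 18 at adjusted p under 0.01 and 0.1, and 0 to 10 with 1 library left out. In opposite directions (1) they numbered 0 under quantile normalization, median centring, no trend, the block and a threshold of 0.01, 2 at 0.1, and 0 to 2 with 1 library left out. The correlation (0.33) ranged from 0.19 to 0.43 with 1 library left out.

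At 4 h the replicate numbers did not pair the libraries: deviations of same-numbered libraries correlated at -0.34, -0.04, -0.08 and -0.07. In the CCR2 experiment they correlated at 0.32, -0.08 and 0.32, and those of differing number at -0.45 to 0.17. Whether the numbers pair libraries there is not known. With the block, 27 genes were called at 4 h and 1423 with CCR2 loss. No direction of a called named gene turned under any alternative. Over all alternatives, these calls were kept 252 times and lost 69 times with fasting, 733 and 297 times with CCR2 loss, and 301 and 58 times for the difference. The cause was not tested. Depth, not known here, limits genes of low TPM.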

Other observations

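Several of the genes that rose with CCR2 loss lie near Ccr2 or near each other (positions from GENCODE M21, GRCm38; these genes were named after their values were seen). Within 5 Mb on each side of Ccr2 (chromosome 9, 124101950 to 124113557), 37 genes were tested. Of these 5 were called higher and 2 lower, and 1 of the lower genes was Ccr2 itself. Of all genes 0.641% were called higher and 3.74% lower. The higher ones include Tmem42 (0.77), Lztfl1 (0.60), Ccr1 (0.86) and 2010315B03Rik (1.30). With fasting none of these was called, and their differences were 0.42, 0.51, 0.39 and -0.27. With CCR2 loss the call of 2010315B03Rik held in every fit with 1 library left out, and those of Tmem42, Lztfl1 and Ccr1 did not.

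Elsewhere, 6 neighbouring pairs of the 55 called higher genes with a position lay within 100 kb of each other. How often other genes lie that near was not counted, so the pairs do not show that the called genes cluster. The pairs were 3 of the MHC class II genes H2-DMb1, H2-Ab1, H2-Aa and H2-Eb1, Ms4a7 with Ms4a4a on chromosome 19, Dynlt1b with Tmem181b-ps on chromosome 17, and Dus2 with Ddx28 on chromosome 8. Dus2 stood at 17.4, 18.8 and 18.2 TPM in CCR2-/-, against 11.6, 9.38 and 11.7 TPM in C57BL/6 libraries (difference 0.69, SE 0.12, adjusted p = 0.044). Ddx28 lies inside the span of Dus2, so reads of these genes may not be told apart.

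Of the 40 genes called with fasting (0.424% of 9428 tested), 11 held in every fit with 1 library left out. Of the 403 called with CCR2 loss (4.38% of 9210 tested), 10 held in every such fit, among them 2010315B03Rik and CAAA01180111.1 with identical values. Not all of the 11 were listed in the CCR2 experiment. No gene was in both sets, but sets this small cannot show whether the states share genes. The erythroid gene Hba-a1 stood at 26.7, 15.0, 27.2 and 13.8 TPM in fast, against 6.03, 7.23, 7.54 and 2.91 TPM in food libraries, and at 6.45, 6.32 and 6.88 TPM in CCR2-/-, against 4.78, 8.07 and 7.17 TPM in C57BL/6 libraries. It was not called at 4 h (adjusted p = 0.050). Ighm, an immunoglobulin heavy chain of B cells, stood at 739, 664, 579 and 563 TPM in fast, against 871, 873, 951 and 830 TPM in food libraries (difference -0.48, SE 0.10, adjusted p = 0.063).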
